A study of Oryza sativa Japonica Group with 9 samples.

Results

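PAL06, 4CL5 and CCR1 are 3 rice genes of the phenylpropanoid pathway, followed here through the first hours after pollination in the egg cell and its fertilized successors. They were taken as every probe set whose only gene in the array's annotation carries one of these names or their synonyms, which gave 4 probe sets among 57194 rice probe sets, and 3 genes among the 17905 that the array pairs with a probe set. PAL06 (LOC4330040, also named ZB8) is read by 2 probe sets, and 4CL5 (LOC4345717) and CCR1 (LOC4331085, also named OsCCR1) by 1 probe set each. The genes were picked with results from these arrays already known, so their levels and differences between stages are given as a description, without a test. All 4 probe sets passed the filter on dim values, a mean log2 value at or above the median of the rice probe sets.

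The study measured RNA of wild-type rice (Oryza sativa subspecies japonica, cultivar Katy), grown in a greenhouse without disease, on 9 Affymetrix rice arrays. Egg cells were taken unfertilized at flowering (0 hours after pollination, hap), fertilized eggs at about 1 hap (given as 1 to 1.5 hap in the series' design) and zygotes, collected like the fertilized eggs after pollination on the plant, at about 3 hap (given as 2.5 to 3 hap). Each of the 3 stages has 3 samples called biological replicates, each a pool of about 100 cells freed from ovules without enzymes, whose RNA went through a 2-cycle amplification. The design compares the cells before and soon after the gametes and then their nuclei fuse. The labels' description field speaks of seedlings, pollen and sperm cells instead. The groups follow the titles and the stage field. The labels do not say whether the replicates came from separate plants, so p-values measure the spread between these samples, which may in part be technical.

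The phenylpropanoid pathway begins when phenylalanine ammonia-lyase (PAL) removes ammonia from phenylalanine to give cinnamic acid. After a hydroxylation, 4-coumarate:CoA ligase (4CL) activates the product as a coenzyme A thioester, the branch point that feeds flavonoids, conjugated phenolics and the lignin precursors. Cinnamoyl-CoA reductase (CCR) reduces these thioesters to aldehydes as the first step committed to the lignin precursors, and cinnamyl alcohol dehydrogenase (CAD) then gives the alcohols that laccases and peroxidases join in the cell wall. In plants the pathway is best known from lignifying tissue and from responses to wounding and pathogens. In rice, CCR1 has been described as an effector of the small GTPase Rac1 in defence.

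All arrays had the same trimmed mean signal and still differed in other ways. Median signals over the rice probe sets were 36.5 to 50.9 in the egg cells, 47.3 to 95.4 in the fertilized eggs and 54.0 to 218 in the zygotes. One array, zygote replicate 2, stood apart: its correlations with the other arrays had a median of 0.694, against 0.866 to 0.929 for the other 8 arrays. The ratio of spike RNA added before amplification to spike RNA added after it was 0.0522 to 0.0866 in the egg cells, 0.234 to 0.579 in the fertilized eggs and 0.224 to 1.09 in the zygotes, so every egg array lay below every later array. The log2 ratio of 3′ to 5′ control probe signal, a sign of RNA length, was 6.0 to 6.5 in the egg cells, 6.3 to 8.6 in the fertilized eggs and 5.9 to 8.2 in the zygotes, and it was highest in fertilized egg replicate 3 and zygote replicate 2. Of the egg and zygote markers, only OsWOX9 and OsWOX13 were matched, and the other defining names were not. Their summed signal was 248 to 304 in the egg cells, 187 to 351 in the fertilized eggs and 411 to 519 in the zygotes. OsWOX13 carried most of it, at 179 to 456 over the 9 arrays, against 3.15 to 109 for OsWOX9. OsWOX13 was matched by its other name, WOX8, and may not be the marker meant. The 6 ovule wall and nucellus markers summed to 22719 to 31912 in the egg cells, 20464 to 24410 in the fertilized eggs and 19065 to 31145 in the zygotes. The 6 markers of lignifying vessels and fibres, the cells in which this pathway is classically active, summed to 672 to 794 in the egg cells, 783 to 1007 in the fertilized eggs and 650 to 1172 in the zygotes. This list holds CAD7, itself a pathway gene, at 283 to 557, and a gene at 11.6 to 378 that shares the name BC1 and may not be the marker meant. Since the description field names other material, markers of other tissues were summed too. The 4 photosynthetic genes gave 12395 to 21598 in the egg cells, 14882 to 19754 in the fertilized eggs and 3023 to 13577 in the zygotes. CAB2R was the brightest of them in every array, at 1201 to 16657, against 140 to 402 for OsrbcS. The zygote sum of 3023 was that of replicate 2, the array that stood apart. The 5 endosperm genes gave 10837 to 19402, 15923 to 42955 and 11359 to 24996 in the same order of stages. GBSS-I was the brightest of these in every array, at 7239 to 35882. GLUA-1 had only 0.717 to 81.1 and GLUA-2 had 224 to 1351. The 9 anther genes gave 4083 to 4727, 4650 to 6378 and 5793 to 6212, so that the zygotes lay above the egg cells. Without the cystatin gene of that list, whose match by symbol is in doubt, the other 8 gave 2973 to 3973, 2701 to 3946 and 3168 to 4334, and all stages overlapped. No sperm cell marker was matched. The part of these differences in the results below was not tested. In pooled RNA, fewer cells of a type and less RNA per cell cannot be told apart.

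PAL06, which encodes the entry enzyme, had a signal of 194, 1362 and 73.1 in egg cell replicates 1 to 3, 1019, 1838 and 1241 in fertilized eggs, and 600, 691 and 2565 in zygotes. Egg cells 1 and 3 lay below every later array, while egg cell 2 lay above 2 of the 3 fertilized eggs and 2 of the 3 zygotes, so that each pair of stages overlapped. The mean signal was 543 ± 712 in the egg cells, 1366 ± 424 in the fertilized eggs and 1285 ± 1109 in the zygotes (SD, n = 3 each). The highest egg array exceeded the lowest 18.6-fold, against 1.80-fold among fertilized eggs and 4.28-fold among zygotes. On the log2(signal + 15) scale, on which all differences below stand, fertilized eggs minus egg cells gave 2.19 ± 0.84 (SE), and zygotes minus egg cells gave 1.82 ± 0.84. Zygotes minus fertilized eggs gave -0.37 ± 0.84, so these neighbours in the order did not differ beyond their spread. The zygote mean rested on replicate 3, since the other 2 zygotes lay below every fertilized egg. Without that array, zygotes minus fertilized eggs was -1.02 and zygotes minus egg cells was 1.17.

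How far PAL06 lay above egg cells rested on egg cell replicate 2. That array was 10.2-fold above the mean of the other 2 egg arrays, which averaged 133. Without it, fertilized eggs minus egg cells was 3.30 and zygotes minus egg cells was 2.94, whereas without egg cell replicate 3 they were 1.32 and 0.95. The direction was the same with any 1 array left out, but the size of the difference depended on which egg arrays were used.

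The second PAL06 probe set, whose suffix marks probes that may also match other sequences, gave 182, 1288 and 107 in the egg cells, 759, 1689 and 885 in the fertilized eggs and 504, 732 and 2625 in the zygotes. It placed the same egg array and the same zygote array on top. The log2 values of both probe sets had a correlation of 0.986 over the 9 arrays, as a description of probe sets that read the same gene. Its mean signal was 525 in the egg cells, 1111 in the fertilized eggs and 1287 in the zygotes. Its differences were 1.75 ± 0.81 for fertilized eggs minus egg cells and 1.68 ± 0.81 for zygotes minus egg cells (SE). For zygotes minus fertilized eggs it gave -0.07 ± 0.81.

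4CL5, which encodes a ligase of the thioester step, had a signal of 790, 2251 and 512 in egg cell replicates 1 to 3, 2567, 4973 and 3818 in fertilized eggs, and 844, 2111 and 2451 in zygotes. Every fertilized egg array lay above every egg and every zygote array, and the egg and zygote arrays overlapped. The mean signal was 1184 ± 934 in the egg cells, 3786 ± 1203 in the fertilized eggs and 1802 ± 847 in the zygotes (SD, n = 3 each), which puts fertilized eggs first, then zygotes, then egg cells. Fertilized eggs minus egg cells was 1.89 ± 0.54 (SE), or 3.72-fold. Zygotes minus fertilized eggs was -1.15 ± 0.54. Zygotes minus egg cells was 0.74 ± 0.54, a difference close to its error. The highest egg array was again replicate 2, at 3.46 times the mean of the other egg arrays, and without it fertilized eggs minus egg cells was 2.49 and zygotes minus egg cells was 1.34. With zygote replicate 1 left out, zygotes minus fertilized eggs was -0.68 and zygotes minus egg cells was 1.21.

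CCR1, which encodes the reductase that commits thioesters to the lignin branch, had a signal of 230, 784 and 520 in egg cell replicates 1 to 3, 110, 493 and 197 in fertilized eggs, and 2253, 1016 and 1205 in zygotes. Every zygote array lay above every earlier array, and the egg and fertilized egg arrays overlapped. The mean signal was 511 ± 277 in the egg cells, 267 ± 201 in the fertilized eggs and 1491 ± 667 in the zygotes (SD, n = 3 each). Zygotes minus fertilized eggs was 2.57 ± 0.59 (SE), or 5.95-fold, and zygotes minus egg cells was 1.59 ± 0.59, or 3.01-fold. Fertilized eggs minus egg cells was -0.98 ± 0.59. The array that stood apart, zygote replicate 2, had the lowest CCR1 signal of the 3 zygotes, and without it the zygote mean was 1729 and zygotes minus fertilized eggs was 2.80. Over the 9 arrays left out in turn, zygotes minus fertilized eggs ran from 2.11 to 3.12, so no single array carried it. With the spike ratio as a covariate, zygotes minus egg cells was 0.32 ± 1.00 (SE), against 1.59 ± 0.59 without it. Every egg array had a lower spike ratio than every later array, so this fit can hardly separate the ratio from the stage. Zygotes minus fertilized eggs stayed within the range of 2.11 to 3.12 over all alternatives.

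**Figure D1:**
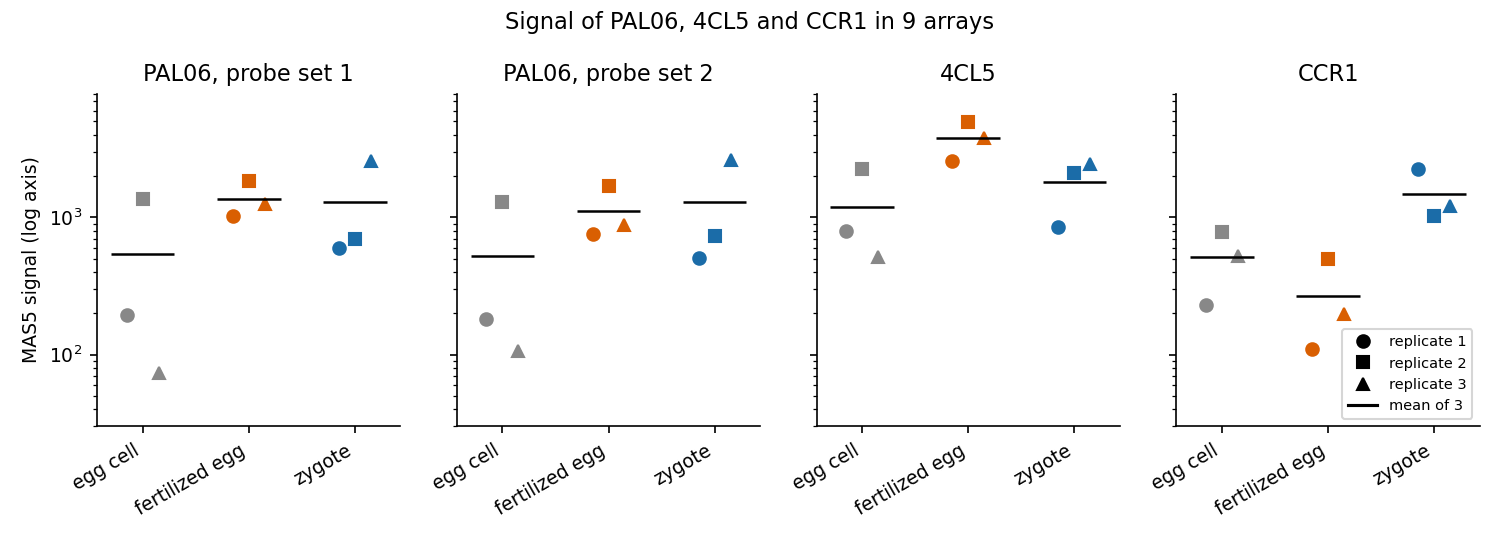
MAS5 signal (log axis) of both PAL06 probe sets, 4CL5 and CCR1 by stage, with 1 point per array, the replicate number as the symbol and a black line at the mean of 3 arrays. Egg cell replicate 2 (square) was the highest egg array in each panel, the 3 fertilized eggs held the highest 4CL5 signals, and the 3 zygotes held the highest CCR1 signals.

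CCR1 thus had its highest and lowest stage means in other places than 4CL5 and the brighter PAL06 probe set. These both had their lowest mean in egg cells and their highest in fertilized eggs. The second PAL06 probe set also had its lowest mean in egg cells, but its highest mean signal in zygotes, at 1287 against 1111 in fertilized eggs. For PAL06, fertilized eggs and zygotes did not differ beyond their spread. CCR1 was highest in zygotes and had its lowest mean in fertilized eggs, whose arrays overlapped those of the egg cells. Over the 9 arrays, log2 values of PAL06 and 4CL5 had a correlation of 0.875, PAL06 and CCR1 of 0.118, and 4CL5 and CCR1 of -0.22. After each stage's mean was removed, the correlation of PAL06 with 4CL5 was 0.886, so arrays of 1 stage that were high in one gene were high in the other. The values of 1 array share its amplification and scaling, and these correlations over 9 arrays are a description. None of the 4 probe sets had an adjusted p under 0.05 in any of the 3 comparisons by limma with Benjamini-Hochberg adjustment. Over all kept probe sets, 0.0420% passed for fertilized eggs minus egg cells, 0% for zygotes minus fertilized eggs and 0.0699% for zygotes minus egg cells. In the fit with array weights, which gives noisier arrays less influence, both PAL06 probe sets and 4CL5 passed for fertilized eggs minus egg cells, where 4.36% of all kept probe sets did. The weighted differences there were 3.08 ± 0.65 for PAL06 and 2.41 ± 0.40 for 4CL5 (SE). Egg cell replicate 2, the highest egg array for both genes, had a weight of 0.946, against 3.13 and 3.49 for egg cell replicates 1 and 3. None passed with weights for zygotes minus fertilized eggs or zygotes minus egg cells, where 0% and 1.99% of kept probe sets did. Since these contrasts entered the choice of the genes, these calls are no test of them, and nothing is read from the counts.

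The other genes of the same families are given for comparison, and their differences from PAL06, 4CL5 and CCR1 were not tested. The second PAL gene, listed as PAL (LOC4330034), lies close to PAL06, with 2 genes between them in the gene table. Its brightest probe set had a signal of 4996, 7896 and 9966 in the egg cells, 3101, 5447 and 2752 in the fertilized eggs and 14203, 2348 and 6665 in the zygotes. The fertilized egg arrays were mostly the lower ones, the groups overlapped, and the difference of fertilized eggs minus egg cells was -1.02 ± 0.54 (SE; adjusted p = 0.621 by limma). For zygotes minus fertilized eggs it was 0.75 ± 0.54, and for zygotes minus egg cells it was -0.27 ± 0.54. The other 4 PAL probe sets were all above 0 for zygotes minus egg cells, at 0.47, 0.69, 1.68 and 0.89. They disagreed on fertilized eggs minus egg cells, with -0.34 and -0.67 for 2 of them and 0.66 and 0.77 for the others. The last 2 were dim, with stage mean signals of 87.7 to 291 and 24.0 to 106, and the dimmer one did not pass the filter. PAL genes are close copies, and probes of one may read another, so the values of single PAL genes are uncertain to that extent.

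Of the other 4CL genes, 4CL4 had a signal of 646, 1925 and 589 in the egg cells, 759, 610 and 477 in the fertilized eggs and 1122, 524 and 1249 in the zygotes. It overlapped between all stages, and egg cell replicate 2 was the highest of the 9 arrays. Fertilized eggs minus egg cells was -0.57 ± 0.50 for 4CL4, against 1.89 ± 0.54 for 4CL5 (SE). 4CL2 differed by 0.27 ± 1.00 and 4CL3 by 0.53 ± 0.81 for the same comparison, with stage mean signals of 49.9 to 196 for 4CL2 and 90.7 to 150 for 4CL3. 4CL1 did not pass the filter and had a signal of 8.47 to 215 over the 9 arrays.

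The 4CL-like genes encode relatives of 4CL, many of them without a known substrate. 4CLL1 had a signal of 4466 to 4990 in the egg cells, 4132 to 5062 in the fertilized eggs and 1614 to 4865 in the zygotes, and differed by -0.02 ± 0.36 for fertilized eggs minus egg cells. 4CLL4 differed by 0.79 ± 0.46 and the dim 4CLL7 by 1.90 ± 0.94 for that comparison (SE). Neither passed the threshold. In the CCR list only CCR1 was matched to a probe set, so no CCR paralog could be set beside it.

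Across the rest of the pathway, 48 other genes were found by symbol in the gene table, 37 had a probe set and 26 passed the filter. The hydroxylases C4H, C3'H and F5H were not matched to a probe set by symbol and are not analysed here. None of the 26 had an adjusted p under 0.05 in any comparison by limma with Benjamini-Hochberg adjustment, in either direction. Over all 15342 kept genes, 0.00652% passed as higher and 0.00652% as lower for fertilized eggs minus egg cells, 0% and 0% for zygotes minus fertilized eggs, and 0% and 0.0521% for zygotes minus egg cells. At an unadjusted p under 0.05, 2 of 26 were higher and 0 lower in fertilized eggs than in egg cells, against 5.47% and 4.66% of all kept genes. For zygotes minus fertilized eggs 1 was higher and 3 lower, against 3.77% and 7.02%, and for zygotes minus egg cells 1 was higher and 1 lower, against 6.54% and 8.51%. The median difference of the 26 genes was 0.12, against 0.01 over all kept genes, for fertilized eggs minus egg cells. It was -0.24, against -0.07, for zygotes minus fertilized eggs, and 0.11, against -0.08, for zygotes minus egg cells.

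The arrays of fertilized eggs and egg cells did not overlap in 3 of 26 genes that were higher in fertilized eggs, against 14.1% of all kept genes, and in 1 that was lower, against 12.3%. Zygotes did not overlap fertilized eggs in 2 genes that were higher (5.60% of all kept genes) and 4 that were lower (8.08%), and did not overlap egg cells in 2 that were higher (10.6%) and 1 that was lower (10.4%). With 26 genes, nothing particular to the pathway is read from these counts.

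**Figure D2:**
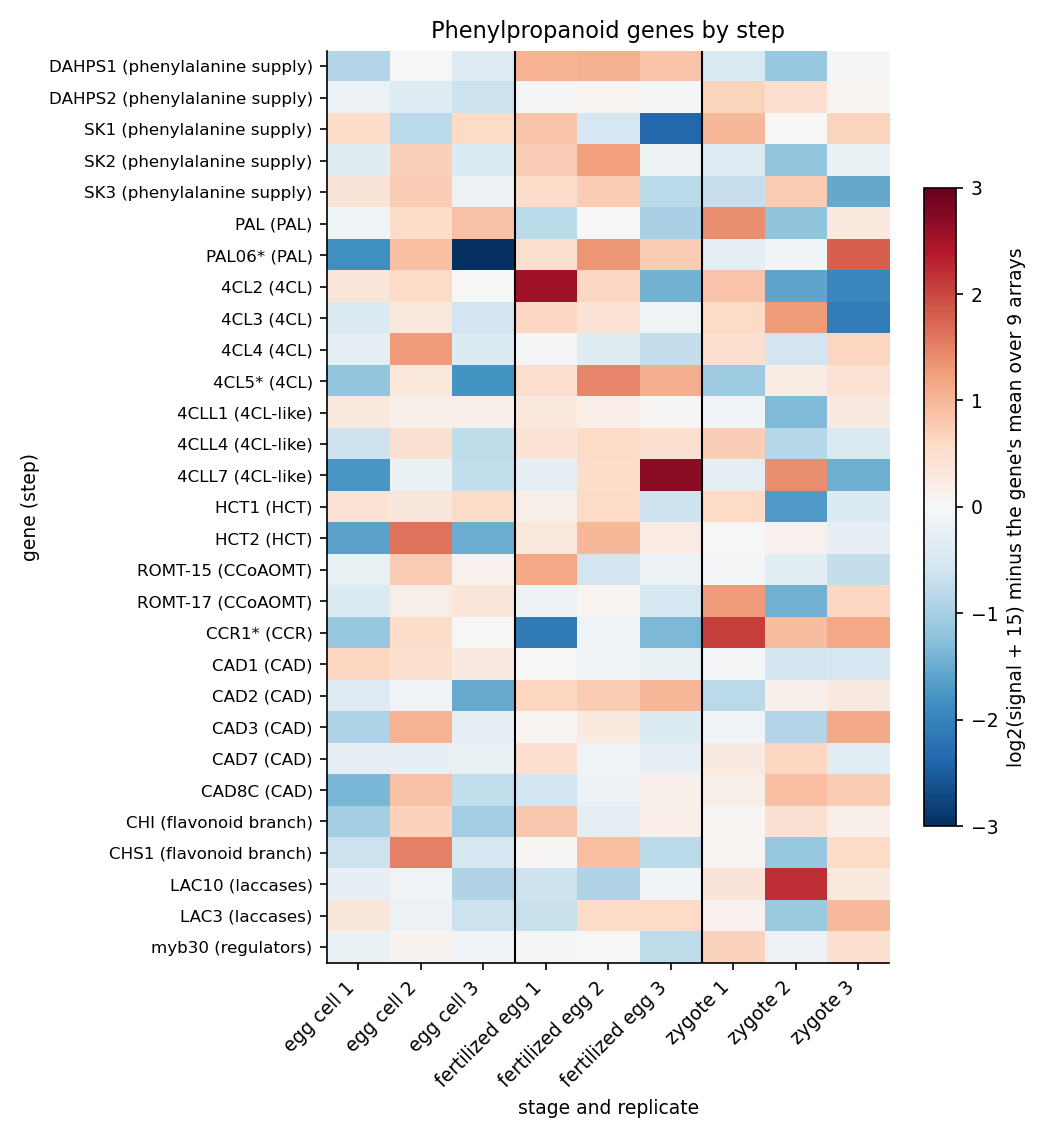
Log2(signal + 15) minus each gene's mean over 9 arrays (colour, red above and blue below the mean) for PAL06, 4CL5, CCR1 (asterisks) and the 26 other pathway genes that passed the filter, in order of the steps, with 1 column per array. Egg cell replicate 2 was red in PAL06, 4CL4, HCT2, CHS1 and CAD3, whereas egg cell replicates 1 and 3 were blue there.

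DAHPS1 and CAD2, at opposite ends of the pathway, had the smallest unadjusted p for fertilized eggs minus egg cells. CAD2, also named GH2, encodes the dehydrogenase whose loss gives the gold hull and internode trait of rice. Its signal was 3145, 3855 and 1420 in the egg cells, 6436, 7011 and 8177 in the fertilized eggs and 2343, 4550 and 4925 in the zygotes. Every fertilized egg array lay above every egg and zygote array, as for 4CL5. Fertilized eggs minus egg cells was 1.47 ± 0.40 (SE; adjusted p = 0.329 by limma) and zygotes minus fertilized eggs was -0.93 ± 0.40 (adjusted p = 0.444 by limma).

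DAHPS1 encodes a 3-deoxy-D-arabino-heptulosonate 7-phosphate synthase, the entry of the shikimate route that supplies phenylalanine. Its signal was 257, 478 and 362 in the egg cells, 1003, 1017 and 877 in the fertilized eggs and 344, 211 and 460 in the zygotes. All 3 fertilized eggs lay above the other 6 arrays, which overlapped. Fertilized eggs minus egg cells was 1.41 ± 0.42 (SE; adjusted p = 0.387 by limma) and zygotes minus fertilized eggs was -1.53 ± 0.42 (adjusted p = 0.298 by limma). With array weights, CAD2 and DAHPS1 were the only 2 of the 26 genes to pass for fertilized eggs minus egg cells, both as higher, where 2.63% of all kept genes passed as higher and 2.33% as lower. None of the 26 passed with weights for zygotes minus egg cells, where 0.971% of all kept genes passed as higher and 1.23% as lower, or for zygotes minus fertilized eggs, where 0% did. The weighted differences were 1.64 ± 0.34 for CAD2 (adjusted p = 0.0162 by limma) and 1.57 ± 0.30 for DAHPS1 (adjusted p = 0.0105 by limma).

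CAD1 went the other way from CAD2 in fertilized eggs. Its signal was 3683, 3299 and 2813 in the egg cells, 2373, 2177 and 2019 in the fertilized eggs and 2264, 1590 and 1659 in the zygotes. Both later stages lay below all egg arrays. The differences of -0.57 ± 0.28 for fertilized eggs minus egg cells and -0.83 ± 0.28 for zygotes minus egg cells (SE) did not pass the threshold (adjusted p = 0.588 and 0.237 by limma).

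The genes with the smallest unadjusted p in the zygote comparisons also missed the threshold. DAHPS2, a second gene of the shikimate entry step, differed by 0.81 ± 0.26 for zygotes minus egg cells (SE; adjusted p = 0.225 by limma) at its brightest probe set, but by -2.11 ± 0.64 at a dimmer one (adjusted p = 0.220 by limma). The direction for this gene is therefore not settled. SK2, a shikimate kinase, differed by -1.19 ± 0.48 for zygotes minus fertilized eggs (adjusted p = 0.422 by limma). The laccase LAC10 differed by 1.50 ± 0.68 in that comparison (adjusted p = 0.463 by limma), with signals of 120, 460 and 111 in zygotes, against 51.4, 39.8 and 82.4 in fertilized eggs. The zygote value of 460 was that of replicate 2, the array that stood apart. The gene matched as the regulator myb30, which is also named MYBS3 and may not be the pathway regulator meant, differed by 0.60 ± 0.34 for zygotes minus fertilized eggs, and CAD8C by 1.02 ± 0.63 for zygotes minus egg cells (SE).

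The brightest genes of the remaining lists showed no difference past the threshold. HCT1, a hydroxycinnamoyltransferase, had a signal of 1580 to 1861 in the egg cells, 806 to 1894 in the fertilized eggs and 372 to 1877 in the zygotes. ROMT-17, an O-methyltransferase, had 4873 to 8314, 4473 to 6851 and 2350 to 15495 in the same order of stages. CHI, the chalcone isomerase of the flavonoid branch, had 306 to 1052 in the egg cells, 531 to 1147 in the fertilized eggs and 673 to 898 in the zygotes. The groups overlapped in each of these genes at its brightest probe set. At a dimmer ROMT-17 probe set, the zygotes (1521 to 1547) lay above the egg cells (530 to 1422) and the fertilized eggs (413 to 1486). At another, the zygotes (5017 to 7702) lay above the egg cells (4232 to 4833) only. The remaining ROMT-17 probe set overlapped between all stages.

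**Figure D3:**
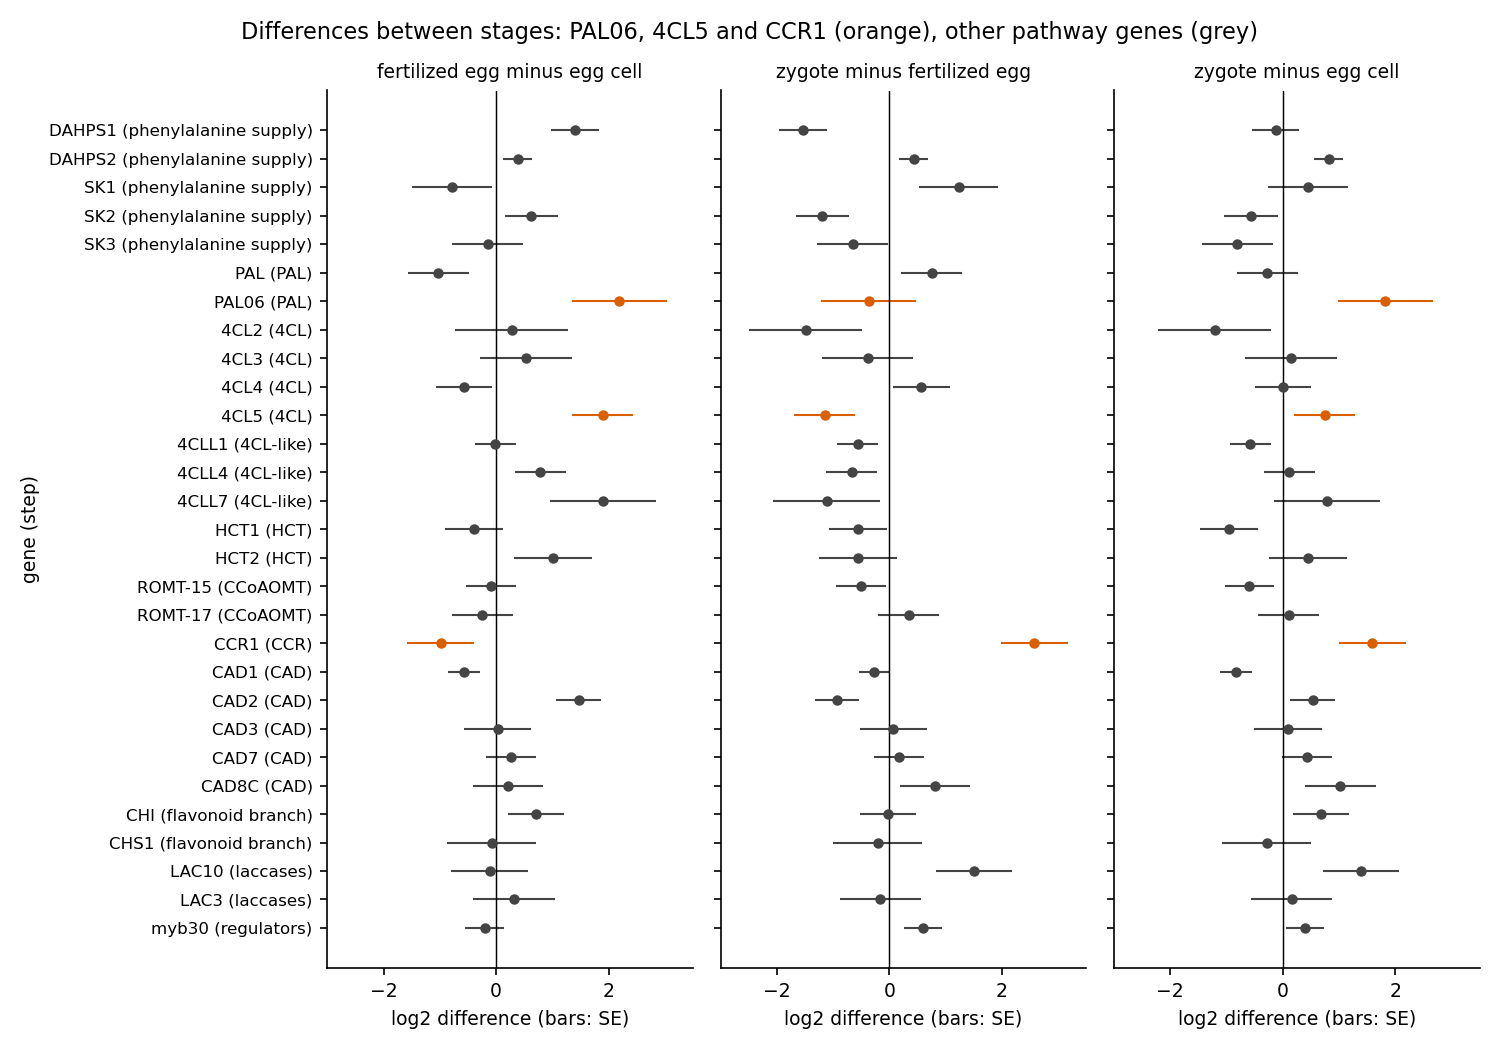
Log2 differences between stages (points) with their SE (bars) for PAL06, 4CL5 and CCR1 (orange) and the 26 other pathway genes (dark grey), in order of the steps. PAL06 and 4CL5 lay at 2.19 and 1.89 for fertilized eggs minus egg cells, beside CAD2 at 1.47 and DAHPS1 at 1.41, and CCR1 lay at 2.57 for zygotes minus fertilized eggs.

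Egg cell replicate 2 was high in many of these genes, a pattern seen only after the values were in view. Its signal was at least 2-fold above both other egg arrays, on the log2(signal + 15) scale, in PAL06 and 4CL5 and in 8 of the 26 other pathway genes (30.8%), against 7.95% of all kept genes. The 8 genes were 4CL4, 4CLL4, HCT2, CAD3, CAD8C, CHI, CHS1 and SK2. HCT2, a hydroxycinnamoyltransferase, had 2472 in that array and 249 and 273 in the other egg arrays. The same array had the highest summed ovule wall and nucellus signal of the egg arrays, at 31912 against 22719 and 26811. That sum was carried by LTPL1 (18358) and MADS58 (9721), while MADS13 (588), MADS21 (274) and FST (2832) were lower there than in both other egg arrays. Egg cell replicate 2 also had the highest spike ratio of the egg arrays, at 0.0866 against 0.0619 and 0.0522. Its summed signal of the lignifying markers was 794, against 672 and 748. The gene of uncertain match named BC1 gave 145 of it, against 47.0 and 84.5 in egg cell replicates 1 and 3. CESA4 and CESA9 were also highest in that array, while CESA7, CAD7 and the other BC1 gene were not. The part of these measures in the pattern was not tested. Zygote replicate 2 was at least 2-fold below both other zygotes in 7 of the 26 genes and in none of the 3 genes, against 17.6% of all kept genes.

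Among 2146 kept genes with an informative symbol, those whose log2 values followed PAL06 most closely over the 9 arrays were JAZ9 (correlation 0.941), CDPK1 (0.914), JAZ11 (0.907) and NH2 (0.889). JAZ9 and JAZ11 encode repressors of jasmonate signalling, CDPK1 a calcium-dependent protein kinase and NH2 a relative of the salicylic acid regulator NPR1. JAZ9 had a signal of 1210, 10312 and 987 in the egg cells, 7073, 9656 and 8035 in the fertilized eggs and 2752, 3310 and 7199 in the zygotes. JAZ11 had 1291, 12594 and 1170 in the egg cells, 13475, 11912 and 11277 in the fertilized eggs and 3979, 3562 and 8300 in the zygotes. Egg cell replicate 2 was far above the other egg arrays in both genes, as in PAL06.

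The closest genes to 4CL5 were CAD2 (correlation 0.943), LOL3 (0.926), JAZ9 (0.914) and OsC3H33 (0.904). LOL3 had a signal of 777 to 1420 in the egg cells, 1750 to 2818 in the fertilized eggs and 1148 to 1621 in the zygotes. Its fertilized egg arrays lay above all others. The closest genes to CCR1 were UPD1 (0.939), ERG3 (0.902), LTD (0.885) and OsC3H37 (0.868). UPD1 had 543 to 632 in the egg cells, 353 to 661 in the fertilized eggs and 810 to 910 in the zygotes, so its zygote arrays also lay above all earlier ones. Without zygote replicate 2, these 12 correlations ran from 0.912 to 0.945. Genes were ranked among many on 9 arrays that share scaling and amplification, so a high correlation here is a description of likeness.

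**Figure D4:**
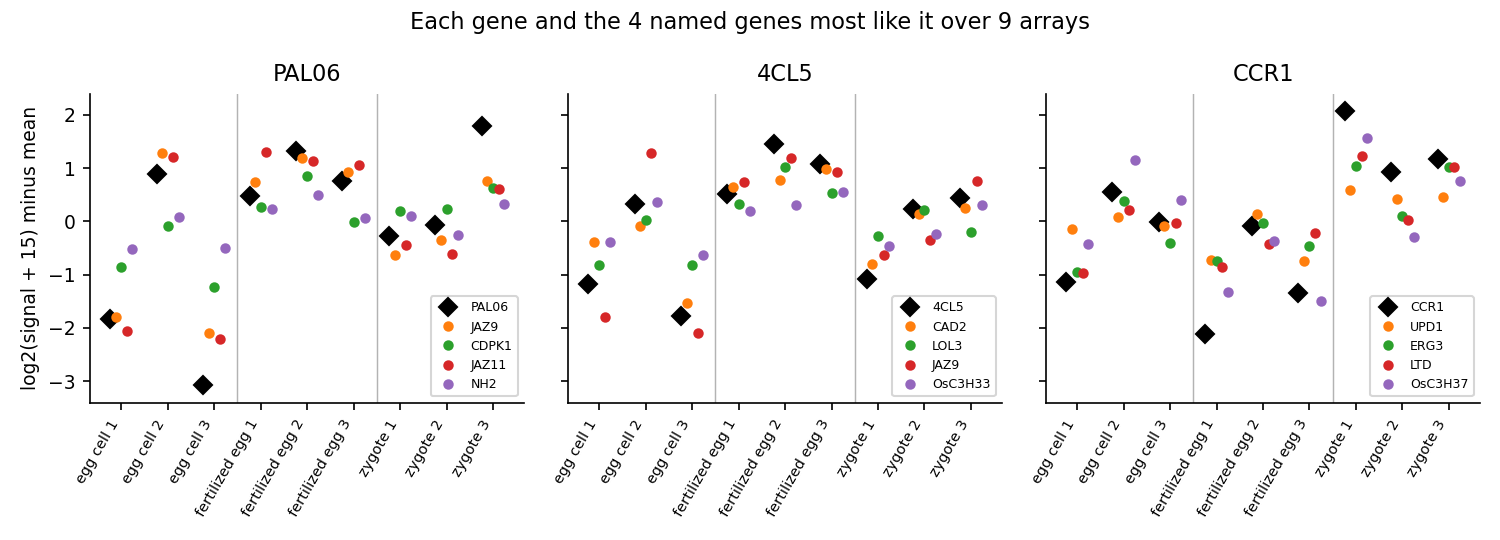
Log2(signal + 15) minus the mean over 9 arrays for PAL06, 4CL5 and CCR1 (black diamonds) and the 4 named genes most like each (coloured points), with 1 position per array and grey lines between stages. JAZ9 and JAZ11 followed the high value of PAL06 in egg cell replicate 2, and the genes most like CCR1 were above their means in zygote replicates 1 and 3.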

How the data were processed

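The deposited table gives an intensity, on a linear scale, for each probe set of each array. Per the submitters' processing notes, the authors used MAS5; no version of it appears in the sources used here. The trimmed mean (2% off either end) was about 500 in each array, so the deposited intensity values share that scale. Of 57381 probe sets, 123 Affymetrix controls and 64 reporters were left out. The annotation gave 1 gene for 22436 probe sets, several for 95 and none for 34663. For names, RefSeq's table of genes (assembly ASM3414082v1) was used; it held all 17905 genes, and its coordinates are not printed. A gene's brightest probe set stands for it.

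From the intensity values, log2(signal + 15) was computed, 15 being the rounded 25th percentile, which understates changes of dim genes. Probe sets with a mean log2 value at or above the median were kept (28597, for 15342 genes). All 9 arrays entered limma's lmFit and trended eBayes (limma 3.58.1, R 4.3.3) with 3 contrasts, Benjamini-Hochberg adjustment and a threshold of 0.05. Python 3.11.15, pandas 2.3.3 and matplotlib 3.10.9 prepared tables and plots. The fit was run on simulated data with independent normal noise of the same spread in all arrays. That run checked the calculation only, since it held no outlying array like those seen here. The number of arrays limits the precision.

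Members and gene lists were chosen with earlier results of these data known. Pathway lists were symbol patterns. The text names every matched PAL, 4CL, 4CL-like and CCR gene, the brightest gene of the other lists, the 5 smallest unadjusted p per contrast, and the 4 named genes most correlated with each member. Examples outside that rule, HCT2 among the genes high in egg cell replicate 2 for instance, were chosen after their values were seen. Alternatives covered the offset, the filter, quantile normalization, array weights, the variance trend, the arrays in the fit, the replicate number as a block, the spike ratio and each array left out in turn.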

Additional observations from a re-analysis of the deposited data

How the results depend on the processing

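With 1 choice changed at a time, and each of the 9 arrays left out in turn, 4CL5 ran from 1.44 to 2.64 (log2) for fertilized eggs minus egg cells, -1.44 to -0.68 for zygotes minus fertilized eggs and 0.29 to 1.48 for zygotes minus egg cells. CCR1 ran from -2.27 to -0.41, 2.11 to 3.12 and 0.32 to 1.97 in the same comparisons, and PAL06 from 1.32 to 3.30, -1.02 to 0.04 and 0.95 to 3.11. With single arrays left out, the ranges were 1.44 to 2.49, -1.44 to -0.68 and 0.29 to 1.34 for 4CL5, -1.53 to -0.52, 2.11 to 3.12 and 1.12 to 1.97 for CCR1, and 1.32 to 3.30, -1.02 to 0.0099 and 0.95 to 2.94 for PAL06. PAL06 for zygotes minus fertilized eggs changed sign with array weights (0.04) and without zygote replicate 1 (0.0099). With the spike ratio as a covariate, CCR1 was -2.27 ± 1.01 for fertilized eggs minus egg cells and 0.32 ± 1.00 for zygotes minus egg cells (SE). The ratio was lower in every egg array than in every later array, so that fit can hardly separate it from the stage. The count of probe sets past the threshold for fertilized eggs minus egg cells was 12, and 20 with an offset of 100, 1248 with array weights, 0 without the variance trend, 155 with only the arrays of the 2 stages and 841 with the spike covariate. For zygotes minus fertilized eggs it was 0, and 253 with the spike covariate. For zygotes minus egg cells it was 20, and 9 after quantile normalization, 568 with array weights, 0 without the trend, 2 with only the 2 stages and 1147 with the spike covariate. Leaving out egg cell replicate 2 and zygote replicate 2 together, an alternative chosen after seeing the data, gave 36 and 5 probe sets for the first and last comparison and, in zygotes minus egg cells, 3.21 for PAL06 and 2.20 for CCR1. With single arrays left out the counts ran from 1 to 67, 0 to 6 and 0 to 792, with 67 without zygote replicate 2 and 792 without zygote replicate 1. No other pathway gene passed in those fits (0 to 0), and 2 passed with array weights for fertilized eggs minus egg cells. The cause of these shifts was not tested. With the replicate number as a block, 8 probe sets passed for zygotes minus egg cells, and the log2 differences of PAL06, 4CL5 and CCR1 kept their values. Their SE were 0.81, 0.45 and 0.59 with the block, against 0.84, 0.54 and 0.59 without it. Deviations of same-numbered arrays from their stage means correlated at -0.22 to 0.14, and 0 of 9 arrays correlated best with its own number in both other stages. With so few arrays per stage, this cannot settle whether same-numbered samples share an origin. Signal near background limits the dim genes, among them 4CL1, 4CL2, 4CL3 and 4CLL7.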

Other observations

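One of the 2 genes that lie between PAL and PAL06 in the gene table had probe sets of its own. This gene, LOC4330036, carries no name in the tables used here. Its brightest probe set had a signal of 4025, 9938 and 4410 in the egg cells, 7338, 7311 and 6608 in the fertilized eggs and 6899, 2058 and 8231 in the zygotes. Egg cell replicate 2 was the highest of the 9 arrays there, and zygote replicate 2 the lowest. Its dimmer probe sets did not share this order. Zygote replicate 2 had 284 and 1211 at them, above the other zygotes. Egg cell replicate 2 was highest at the dimmest, with 519, but fertilized egg replicate 1 was highest at the other, with 1328.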
